A study of Mus musculus with 24 samples.

Results

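Vascular and leptomeningeal cells (VLMC) are the nuclei that the authors placed in a single non-neuronal cluster of that name in single-nucleus RNA sequencing (snRNA-seq) of the mouse ventral hippocampus. They were taken here as the 4 columns of the deposited count table whose label holds VLMC, which sum the counts of 515 nuclei among 30880 in all. Nuclei came from adult male mice, 10 to 16 weeks old, of the inbred strains C57BL/6J (B6) and DBA/2J (D2), with no treatment named in the labels, and each strain had 2 libraries that each pooled about 2 animals. Nuclei were sorted for NeuN, which marks neurons, to a mixture of 75% NeuN-positive and 25% NeuN-negative nuclei, so the share of VLMC among nuclei is partly a product of the sort. The comparisons are of VLMC with the 16 other cell types of the table, and of D2 with B6 within VLMC.

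VLMC of the brain comprise the fibroblast-like cells of the leptomeninges, the thin membranes that cover the brain and follow its vessels inward, together with cells of the vessel wall. Leptomeningeal fibroblasts lay down collagens and laminins of the pial basement membrane, carry transporters that clear organic anions, amino acids and sulphate from the cerebrospinal fluid, and release retinoic acid, bone morphogenetic proteins and other signals. Endothelial cells line the vessels and form the blood-brain barrier, and pericytes sit on their outer face within the same basement membrane.

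The cluster held 98 and 160 nuclei from B6 and 164 and 93 from D2, in libraries that the table numbers 2 and 3. VLMC were 1.13% (exact binomial 95% interval 0.915% to 1.37%) and 2.04% (1.74% to 2.37%) of all nuclei in B6, and 2.05% (1.75% to 2.38%) and 1.47% (1.19% to 1.80%) in D2. The strains overlapped in this share. The 4 VLMC columns held 225029, 480600, 593447 and 311703 counts, between 2296 and 3619 counts per nucleus, so B6 library 2 was the shallowest. At these depths 3 counts in a column stood for 13.3, 6.24, 5.06 and 9.62 CPM (counts scaled to the total of their column). By the study's methods each library was a separate pool of animals, so p-values below measure the spread between such pools within a strain.

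A gene was called VLMC-high when it had at least 3 counts in each VLMC column and its CPM in every VLMC column was at least 4 times that in each of the 16 other cell types, whose counts were summed over libraries and set to at least 3. Of 9290 genes measured, 216 met this rule, which is 2.33% of them. The clustering that formed VLMC used the same nuclei and genes, so these levels describe the cluster and carry no test. The ratio quoted for a gene is the lowest of the 4 VLMC levels over the level in the highest other type. It reached 10 in 75 genes and had a median of 7.49 among the 216, which the rule holds to at least 4. Among all 9290 measured genes the median was 0.47. In 40 of the 216 genes the highest other level was the floor of 3 counts in Cajal-Retzius cells, which had no count. These cells had the fewest counts in all, 1264816, so their floor of 2.37 CPM was the highest. Other types could hold counts at lower levels, as microglia did for Aldh1a2 (1.75 CPM). For these 40 genes the ratio against the floor is written as at least, a bound that rests on the floor of 3 counts. At the upper 95% Poisson limit of no count it is lower, 74.7 for Foxd1 in place of 91.8. In another 40 genes Cajal-Retzius cells had 1 to 3 counts. The ratio against the floor is then followed by its value at the upper 95% Poisson limit of that count. Ratios against higher counts are given without this value, which can lie under 4, as for Thbs2 (5.26, and 2.67 at the limit). VLMC-high genes held between 4.23% and 5.16% of the VLMC counts of each library. The genes nearest the limit were Slc5a5 at a ratio of 4.01 inside it and Lef1 at 3.98 outside it.

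The 3 genes used to check the label did not rank alike. Slc6a13, which encodes a transporter of GABA and taurine (GAT2), was present at 538 and 474 CPM in B6 and 507 and 632 CPM in D2. Its level was 4.80 CPM in microglia, the highest other type, and the lowest ratio was 98.8. Ranbp3l, which encodes a protein of the RanBP family used as a leptomeningeal marker, stood at 818 and 1862 CPM in B6 and 2587 and 2467 CPM in D2. Astrocytes carried Ranbp3l at 136 CPM, and the lowest ratio was 6.03. Dcn, which encodes decorin, a collagen-binding proteoglycan of fibroblasts, stood at 289 and 306 CPM in B6 and 463 and 581 CPM in D2. The CA1 neurons of the Camk2d cluster carried Dcn at 239 CPM, so its lowest ratio was only 1.21, and it fell to 0.89 when totals were scaled by TMM. Dcn was therefore not a gene particular to VLMC in this tissue, while Slc6a13 and Ranbp3l were VLMC-high.

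Promoter sequences are shown for 3 of the genes with high ratios that are solute carriers or basement membrane genes, to show the sequence upstream of members that share this expression. Each runs 5' to 3' on the strand of the gene, from 250 bases before to 50 bases after the RefSeq start site in GRCm38.p6. Capitals mark matches to the letters searched.
Slc6a20a, chr9:123678783-123679082, minus strand: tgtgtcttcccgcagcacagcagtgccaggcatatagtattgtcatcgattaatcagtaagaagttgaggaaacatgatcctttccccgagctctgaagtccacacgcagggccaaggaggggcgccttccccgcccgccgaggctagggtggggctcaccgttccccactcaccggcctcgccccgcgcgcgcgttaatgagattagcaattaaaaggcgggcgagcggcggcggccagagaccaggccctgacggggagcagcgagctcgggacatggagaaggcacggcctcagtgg
Slc13a4, chr6:35308077-35308376, minus strand: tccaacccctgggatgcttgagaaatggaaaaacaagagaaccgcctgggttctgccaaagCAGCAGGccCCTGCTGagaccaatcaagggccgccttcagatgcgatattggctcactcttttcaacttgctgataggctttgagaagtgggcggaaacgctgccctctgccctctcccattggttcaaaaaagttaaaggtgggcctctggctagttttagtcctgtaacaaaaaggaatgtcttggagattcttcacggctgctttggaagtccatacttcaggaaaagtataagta
Col4a6, chrX:141474027-141474326, minus strand: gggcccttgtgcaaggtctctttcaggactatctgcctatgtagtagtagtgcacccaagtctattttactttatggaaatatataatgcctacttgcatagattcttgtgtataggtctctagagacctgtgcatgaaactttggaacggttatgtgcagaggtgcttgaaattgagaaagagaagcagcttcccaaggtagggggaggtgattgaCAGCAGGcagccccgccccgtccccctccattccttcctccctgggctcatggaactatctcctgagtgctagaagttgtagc

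The letters searched, on both strands, were TGTTTAC for forkhead factors, GGTGTGA for T-box factors and CCTGCTG for ZIC factors, families with VLMC-high members. None of these strings overlapped another in the sequences shown. Promoters were present for 155 of the 216 genes, as 189 windows, since a gene may have several start sites. The ZIC letters were in 11.6% of these windows and in 10.5% of all 32851 windows, the forkhead letters in 2.65% and 3.65%, and the T-box letters in 3.17% and 3.98%. Slc13a4 held the ZIC letters in both orientations, 180 and 189 bases before the start site, Col4a6 held them 33 bases before it, and Slc6a20a held none of the 3 strings. Of the 20 genes of largest ratio, 17 had a promoter, and only Slc13a4 and Col4a6 among these held the ZIC letters. Mrvi1 held the forkhead letters. The rest held none of the strings, among them Slc22a8, Slc6a13 and Nid1, which are not shown. The shares in VLMC-high promoters lay close to those of all promoters.

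Transporters stood at the head of the VLMC-high genes. Slc6a20a, a sodium-dependent transporter of proline and other imino acids, had the largest ratio of all measured genes, 337. Its levels were 1689 and 2241 CPM in B6 and 1513 and 1880 CPM in D2, against 4.50 CPM in the inhibitory neurons of the caudal ganglionic eminence, and the gene lies at chr9:123634770-123678885. Slc22a8, the organic anion transporter OAT3, stood at 444 and 581 CPM in B6 and 571 and 674 CPM in D2, with a lowest ratio of 113. Of the 13 meningeal solute carriers listed, 12 were measured, all 12 were above every other type in all 4 libraries, and 10 were VLMC-high. Besides those named, Slc47a1, a multidrug and toxin extruder, had a ratio of at least 50.0, and Slc13a4, a sulphate transporter, one of 43.8. The summed level of the list was between 5870 and 7180 CPM in the 4 libraries, against 446 CPM in astrocytes, the highest other type.

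**Figure D1:**
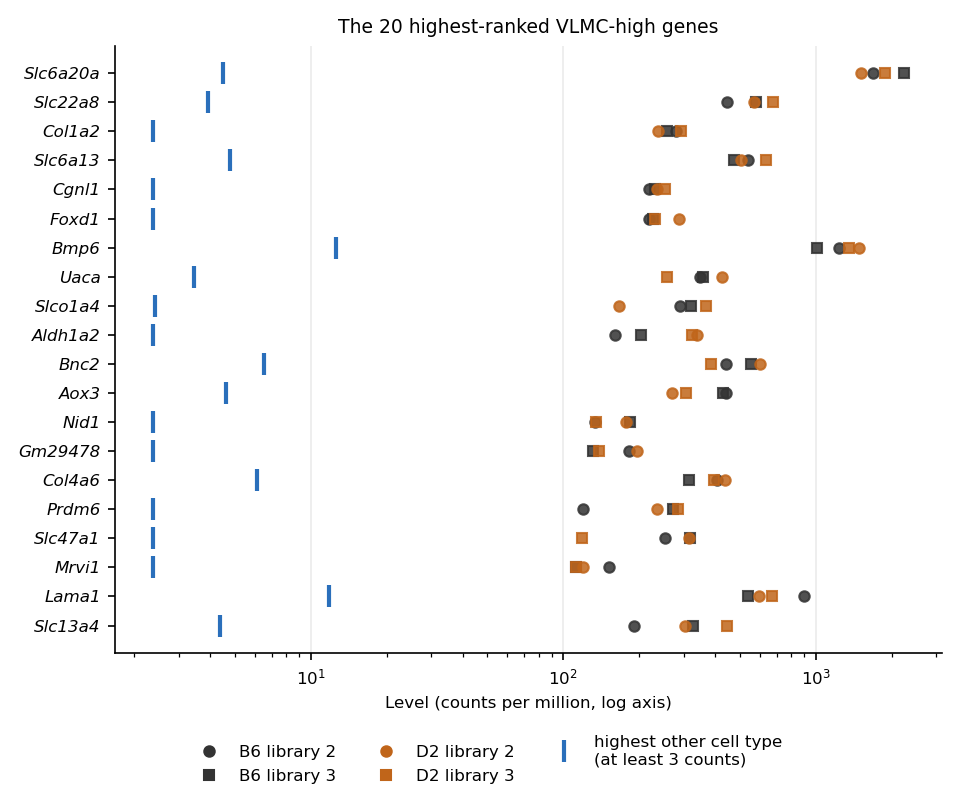
Levels of the 20 VLMC-high genes with the largest lowest ratios, in CPM on a log axis. Circles and squares give the 4 VLMC libraries by strain, and the blue bar gives the highest of the 16 other cell types, set to at least 3 counts; every VLMC point lies to the right of its bar, from a lowest ratio of 43.8 (Slc13a4) to 337 (Slc6a20a).

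Extracellular matrix genes were VLMC-high in part. Among fibrillar and fibril-associated collagens, 8 of 13 were measured and 3 were VLMC-high. They were Col1a2 (ratio 100.2, and 53.9 at the Poisson limit), Col3a1 (27.2 and 14.6) and Col1a1 (9.82), the chains of collagens I and III that give connective tissue its strength. Col1a2 stood at 280 and 258 CPM in B6 and 238 and 292 CPM in D2, and only 1 count of it was seen in Cajal-Retzius cells, the type that set its floor. Col12a1, a fibril-associated collagen, followed with a ratio of 2.99. Col11a1 was lower in all 4 VLMC libraries than in Cajal-Retzius cells, with a highest ratio of 0.33. Among basement membrane components, 17 of 21 were measured, 11 were above every other type in all 4 libraries and 6 were VLMC-high. Nid1, which encodes the laminin linker nidogen, led with a ratio of 56.2 (30.3 at the Poisson limit), followed by the collagen IV chain Col4a6 (51.4), the laminin chains Lama1 (45.6) and Lamc3 (22.9), Col4a5 (7.57) and Hspg2 (7.37), which encodes perlecan. Lama1 stood at 893 and 537 CPM in B6 and 595 and 671 CPM in D2. The summed basement membrane level was between 3256 and 4195 CPM, against 1084 CPM in astrocytes.

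Of the 10 small leucine-rich proteoglycans, which bind collagen fibrils, 9 were measured and 3 were VLMC-high. They were Fmod (fibromodulin, at least 29.8), Bgn (biglycan, 14.9 and 8.01) and Lum (lumican, 6.64), and Ogn followed at 1.68. Of 24 matrix assembly and remodelling genes, 15 were measured, 6 were above every other type in all 4 libraries, 5 were below the highest other type in all 4, and 2 were VLMC-high, Fbln5 (fibulin 5, 7.42) and Thbs2 (thrombospondin 2, 5.26). Fbln1 and Tnxb followed with ratios of 2.88 and 2.70. The median ratio of this list, 0.77, was above the 0.47 of all measured genes and far under the 27.4 of the solute carriers.

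Retinoid and prostaglandin genes were in part VLMC-high. Ptgds, which encodes the prostaglandin D synthase that is secreted into cerebrospinal fluid, stood at 5479 and 8887 CPM in B6 and 7724 and 13144 CPM in D2. Oligodendrocytes carried Ptgds at 1279 CPM, and the lowest ratio was 4.28. Aldh1a2, the retinaldehyde dehydrogenase that makes retinoic acid, stood at 160 and 204 CPM in B6 and 337 and 324 CPM in D2, and had no count in Cajal-Retzius cells (ratio at least 67.4). Cyp1b1 (13.2) and Cyp26b1 (6.25), which degrades retinoic acid, were VLMC-high as well, and 13 of the 16 genes listed were measured. Of the 22 secreted signalling proteins, 15 were measured, 12 were above every other type in all 4 libraries and 4 were VLMC-high. Bmp6 stood at 1231 and 1007 CPM in B6 and 1486 and 1351 CPM in D2, with a lowest ratio of 79.6, and Wnt6 (at least 11.2), Igfbp2 (6.20) and Bmp5 (5.85) were the others.

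Transcription factors of mesenchymal lineages had the largest number of VLMC-high members. Of 33 listed, 31 were in the table, 21 were measured, 20 were above every other type in all 4 libraries and 16 were VLMC-high. Foxd1, a forkhead factor, stood at 218 and 227 CPM in B6 and 288 and 231 CPM in D2, and had no count in Cajal-Retzius cells (ratio at least 91.8). Bnc2 (58.8), the T-box factor Tbx18 (35.8), Foxc1 (33.8 and 18.2), which is needed for the formation of the meninges, Tbx15 (27.1 and 11.2), Zic4 (21.9) and Zic1 (14.9) followed. The summed level of the list lay between 3667 and 4950 CPM in VLMC and at 1171 CPM in microglia. Of the 13 meningeal junction genes, 9 were measured and 2 were VLMC-high, the connexin Gjb2 (at least 18.7) and the cadherin Cdh1 (11.2 and 6.05). Gjb6 (1.48) and Tjp1 (0.94), expressed also in astrocytes and neurons, followed, and 4 of the 9 were below the highest other type in all 4 libraries.

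Other genes at the head of the ranking were on none of the matrix or transporter lists. Cgnl1 (cingulin-like 1, a junction protein, 91.8 and 49.4), Uaca (74.2), the aldehyde oxidase Aox3 (58.2), the noncoding Gm29478 (55.3 and 22.9), Prdm6 (50.6 and 21.0) and Mrvi1 (47.3 and 19.7) were among the top 20. Aox3 stood at 440 and 429 CPM in B6 and 270 and 305 CPM in D2, and its strain groups did not overlap, though the difference did not pass (log2 fold change -0.52 ± 0.23, edgeR adjusted p = 0.212).

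Genes of the vessel wall were also VLMC-high, so the cluster was not leptomeningeal alone. Of 20 endothelial markers, 17 were measured, 14 were above every other type in all 4 libraries and 9 were VLMC-high. They were led by Slco1a4, an organic anion transporter of the blood-brain barrier (69.1), the VEGF receptor Flt1 (40.0), Cdh5 (VE-cadherin, at least 24.4) and the tight junction gene Cldn5 (19.2 and 7.97). Of 11 pericyte markers, 7 were measured, all 7 were above every other type in all 4 libraries and 4 were VLMC-high, namely Vtn (vitronectin, 32.6), Anpep (at least 21.6), the potassium channel subunit Abcc9 (7.10 and 2.95) and Rgs5 (4.48). Atp13a5 followed at 3.68. Of 9 smooth muscle markers, only 3 were measured, and Lmod1 (6.39) and Myl9 (5.39) were VLMC-high, while Pln was below its level in astrocytes. Acta2 and Myh11, which define smooth muscle, had no count in at least 1 library and at most 8.32 and 17.8 CPM in the others.

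Markers of most other cell types were low. None of the microglial, astrocyte, oligodendrocyte, oligodendrocyte precursor or neuronal markers was VLMC-high. The 9 microglial markers summed to between 74.1 and 106 CPM in VLMC, against 8407 CPM in microglia, and only Cx3cr1 and P2ry12 were measured. The 7 border macrophage markers, which mark the macrophages of the meninges and vessel walls, summed to between 4.44 and 14.6 CPM and none was measured. The 5 ependymal markers summed to between 6.24 and 13.5 CPM, and none was measured. Oligodendrocyte markers summed to between 238 and 368 CPM against 13468 CPM in oligodendrocytes, and the 6 astrocyte markers to between 1070 and 1831 CPM against 10633 CPM in astrocytes. Slc1a3 (0.28) had the highest ratio of the astrocyte list and Slc17a7 (0.11) that of the neuronal list. RNA free in the droplets can give such counts, and its part was not tested.

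Of 9 choroid plexus epithelium markers, Kl (7.02), Kcnj13 (1.33) and Ttr (0.59) were measured, and only Kl was VLMC-high. Ttr, which encodes transthyretin and dominates choroid plexus transcripts, had 13 and 11 counts in B6 and 110 and 3 counts in D2. The epithelial genes Clic6 and Otx2 were at 21.9 and 10.1 CPM in D2 library 2, and at 2.08 CPM or less in the other 3. D2 library 2 thus stood apart from the other 3 libraries in Ttr, Clic6 and Otx2, but not in Kl or Kcnj13. Kl stood at 62.2 and 66.6 CPM in B6 and 91.0 and 122 CPM in D2. Kcnj13 stood at 66.7 and 77.0 CPM in B6 and 64.0 and 99.5 CPM in D2. Strain results are given with and without D2 library 2 where it decides them.

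**Figure D2:**
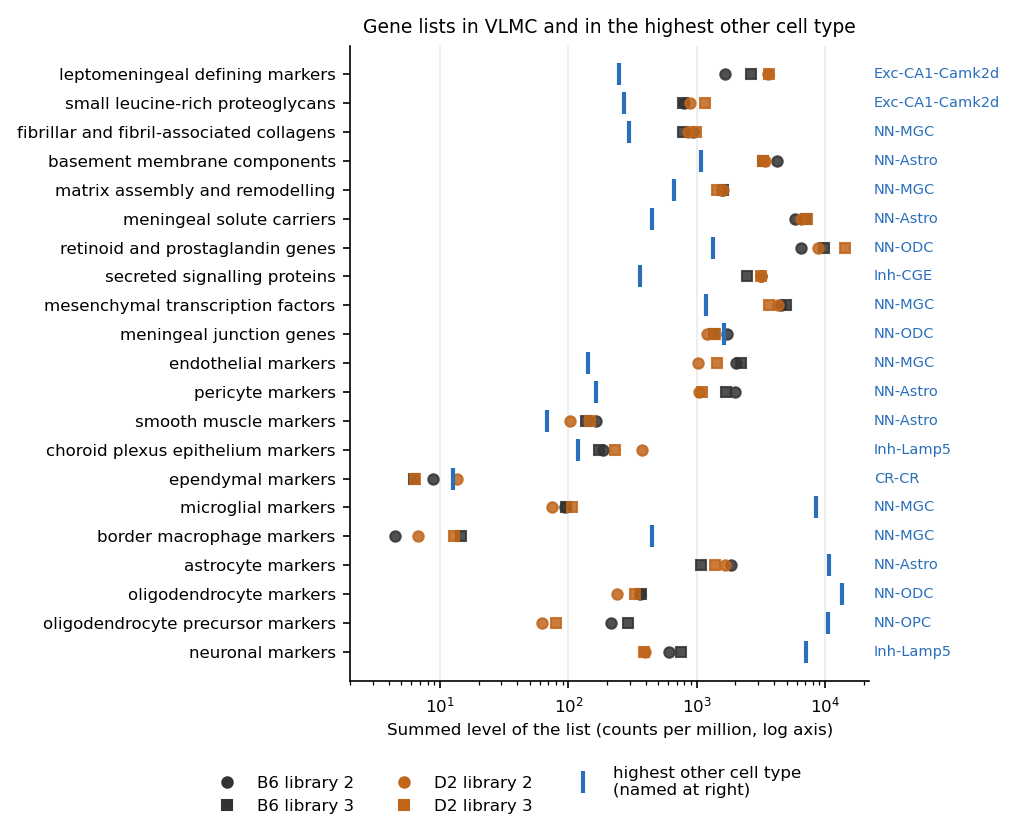
Summed levels of the 21 gene lists in the 4 VLMC libraries (circles and squares by strain) and in the highest other cell type (blue bar, named at right), in CPM on a log axis. Meningeal solute carriers lie between 5870 and 7180 CPM against 446 CPM in astrocytes, while microglial markers lie between 74.1 and 106 CPM against 8407 CPM in microglia.

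To ask how the strains differ within VLMC, D2 was compared with B6 over 7711 genes that were counted in both strains and passed the filter on low counts. By edgeR's quasi-likelihood test 133 genes (1.72%) were higher in D2 and 316 (4.10%) were lower at an adjusted p under 0.05, and 1253 passed at an unadjusted p under 0.05. DESeq2 called 66 genes, 14 higher and 52 lower, all of them among the 449 of edgeR. Without B6 library 3 the edgeR count was 272, and without D2 library 2 it was 243. B6 reads were mapped to mm10, and D2 reads to mm10 carrying the D2 single-nucleotide variants. Apart from this, 8204 symbols of the table had counts only in D2 and 960 only in B6, so the symbols counted differed between strains. The part of the mapping and of the symbols in a strain difference was not tested. Strain differences in VLMC are therefore set beside those in the sum of the 16 other cell types of the same libraries, for the largest differences in the text and for list members in the plot of strain differences by list. Of the 216 VLMC-high genes, 194 were tested, 10 were higher and 11 lower in D2 (DESeq2 called 2, both lower), and their median log2 fold change was 0.07, against -0.00031 for all genes tested. Aldh1a2 was the only one of the 20 genes of largest ratio that passed.

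The largest decreases in D2 were of mitochondrially encoded genes. mt-Co2, a subunit of cytochrome oxidase, had 394 and 927 counts in B6 and 2 and 0 in D2, a pooled CPM ratio of 847 (exact binomial 95% interval 234 to 7003). mt-Nd3, a subunit of complex I, had 65 and 158 counts in B6 and none in D2, which makes it at least 95.4-fold lower against 3 counts over both D2 libraries. mt-Co3, mt-Atp6 and mt-Nd4l had log2 fold changes of -7.74 ± 0.37, -6.31 ± 0.31 and -5.46 ± 0.50 (± SE, edgeR adjusted p = 3.75e-23, 1.25e-22 and 4.13e-12). In the other cell types the log2 fold changes of mt-Co2, mt-Co3, mt-Atp6 and mt-Nd4l were -9.71, -7.67, -6.30 and -6.52, and mt-Nd3 stood at 70.6 CPM (B6) and 0.095 CPM (D2). Of the 13 mitochondrially encoded genes tested, 7 fell and 6 did not pass. Among the latter, mt-Cytb stood at 1280 and 1411 CPM in B6 and 1033 and 1017 CPM in D2 (log2 fold change -0.31). All 13 had a negative log2 fold change. The 13 genes held 1.26% and 1.46% of the VLMC counts in B6 and 0.35% and 0.33% in D2. All mitochondrially encoded symbols of the table together held 1.90% and 1.77% in D2, more than in B6, because 24 symbols were counted only in D2, led by the ribosomal RNA genes mt-Rnr2 (6523 and 3238 counts) and mt-Rnr1 (2589 and 1229 counts). Genes on the same circular genome thus gave near-complete loss and no call side by side, and none of the 13 had a strain difference in VLMC that differed from that in the other types, at an adjusted or an unadjusted p under 0.05 in edgeR or at an adjusted p under 0.05 in DESeq2.

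Other large differences had the same direction in the remaining cell types. Schip1 fell by 4.71 ± 0.48 on the log2 scale in VLMC (24 and 95 counts in B6, 4 and 1 in D2, edgeR adjusted p = 1.33e-10) and had a log2 fold change of -4.55 in the other types. Sfi1, a centrosomal protein gene, rose by 3.78 ± 0.28 (62.2 and 49.9 CPM in B6, 709 and 715 CPM in D2, edgeR adjusted p = 2.31e-15), and its log2 fold change was 2.97 in the other types. Stab2, a scavenger receptor gene of sinusoidal endothelium, rose by 5.62 ± 0.49 (0 and 3 counts in B6, 141 and 56 in D2, edgeR adjusted p = 7.68e-13), beside 3.60 in the other types. Its pooled CPM ratio of 51.2 had an exact binomial 95% interval of 17.3 to 250.4. Gm47015, Aspg, 9030025P20Rik, Zfp949, Atp5o and Gm3448 completed the 8 largest increases, with log2 fold changes between 2.35 and 6.37, of which that of Gm47015 rests on 1 count in B6. In the other types their log2 fold changes were 6.87, 1.41, 1.60, 1.52, 4.20 and 1.80 in the same order, and that of Atp5o (2.41 in VLMC) was the one of the 6 that differed between VLMC and the other types (difference -1.75, edgeR adjusted p = 0.0134). All 16 genes named for the largest differences kept their call without each library in turn.

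Nxpe2 and Themis fell in VLMC and had log2 fold changes of -0.14 and 0.12 in the sum of the other types. Nxpe2, a gene of the neurexophilin-like family at chr9:48318006-48353454, stood at 80.0 and 135 CPM in B6 and 3.37 and 0 CPM in D2 (log2 fold change -5.43 ± 0.60, edgeR adjusted p = 2.30e-09), a pooled CPM ratio of 53.2 (exact binomial 95% interval 14.3 to 447). The other types carried it at 46.9 CPM (B6) and 43.0 CPM (D2). Themis, known for its part in T cell development, stood at 147 and 175 CPM in B6 and 3.37 and 9.62 CPM in D2 (log2 fold change -4.72 ± 0.46, edgeR adjusted p = 4.88e-11), and at 0.49 and 0.54 CPM in the other types. The log2 difference between VLMC and the other types was -5.44 ± 0.60 for Nxpe2 and -4.90 ± 0.72 for Themis (edgeR adjusted p = 0.000129 and 0.00157), and that of Themis did not pass without D2 library 2 (edgeR adjusted p = 0.051). With astrocytes in place of all other types the difference was -3.37 for Nxpe2, which passed, and -4.56 for Themis, which did not.

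Vessel wall markers were lower in D2. Of 15 endothelial markers tested, 5 fell and none rose, beside 4.10% of all genes that fell, and their median log2 fold change was -0.95. Flt1 stood at 538 and 520 CPM in B6 and 244 and 276 CPM in D2 (log2 fold change -0.95 ± 0.23, edgeR adjusted p = 0.00443), and Mecom, a transcription factor gene of endothelium, at 227 and 281 CPM in B6 and 69.1 and 77.0 CPM in D2 (-1.75 ± 0.27, edgeR adjusted p = 7.96e-06). Adgrl4, Emcn and Ly6c1 fell as well, with log2 fold changes of -1.17, -2.11 and -2.11. Slco1a4, at 289 and 320 CPM in B6 and 167 and 366 CPM in D2, overlapped between strains. Only 1 endothelial marker, Mecom, was called by DESeq2. Flt1 did not pass without D2 library 2 (edgeR adjusted p = 0.125), Adgrl4 without B6 library 3 or D2 library 2, Emcn in 3 of the 4 fits without a library and Ly6c1 in any of them, so of the 5 genes 1 passed without D2 library 2, 2 without B6 library 3, 3 without B6 library 2 and 4 without D2 library 3.

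Of 7 pericyte markers tested, 4 fell and none rose, beside 4.10% of all genes tested that fell and 1.72% that rose. The median log2 fold change of the 7 was -0.93. Abcc9 stood at 138 and 64.5 CPM in B6 and 16.9 and 22.5 CPM in D2 (log2 fold change -2.20 ± 0.43, edgeR adjusted p = 0.000365). Atp13a5 stood at 595 and 449 CPM in B6 and 285 and 221 CPM in D2 (-0.93 ± 0.23, edgeR adjusted p = 0.0072). Rgs5, a regulator of G protein signalling, and Notch3, the receptor that matures mural cells, fell with log2 fold changes of -1.43 ± 0.38 and -1.19 ± 0.31 (edgeR adjusted p = 0.012 and 0.0109). At an unadjusted p under 0.05 edgeR called the same number, 4, and DESeq2 called none at an adjusted p under 0.05. Abcc9 passed without each library, Atp13a5 did not without B6 library 2 or D2 library 3, Rgs5 without B6 library 3 or D2 library 3 and Notch3 in 3 of the 4 fits, and the count was 1 without D2 library 3, 2 without B6 library 3 and 3 without either of the others. The summed endothelial level was 2031 and 2208 CPM in B6 and 1019 and 1424 CPM in D2. That of pericyte markers was 1991 and 1690 CPM in B6 and 1036 and 1104 CPM in D2. Neither sum overlapped between strains, though 2 libraries against 2 cannot go below an exact permutation p of 0.33. Fewer vessel wall nuclei in the cluster and fewer transcripts per nucleus cannot be told apart in counts summed over a cluster.

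Genes of the leptomeningeal lists moved in both directions, with more of the edgeR calls higher in D2. DESeq2 called no member higher in the leptomeningeal, matrix, solute carrier, retinoid, signalling, transcription factor or junction lists. Over all genes tested, edgeR called 1.72% higher and 4.10% lower. Ranbp3l (log2 fold change 0.97 ± 0.24, edgeR adjusted p = 0.00554) and Dcn (0.88 ± 0.23, edgeR adjusted p = 0.0106) rose, and their D2 libraries, given above, lay above both B6 libraries. Ranbp3l did not pass without B6 library 2 (log2 fold change 0.51, edgeR adjusted p = 0.219), whose 818 CPM was the lowest of the 4 levels, and Dcn did not without B6 library 2 or D2 library 3. Slc6a13 did not pass (0.25 ± 0.22, edgeR adjusted p = 0.664). Dcn was the only small leucine-rich proteoglycan called of 9 tested, Col3a1 the only collagen of 8 (1.03 ± 0.29, edgeR adjusted p = 0.021) and Nid2 the only basement membrane gene of 16 (1.83 ± 0.50, edgeR adjusted p = 0.0168). None of 17 matrix assembly and remodelling genes passed in edgeR or DESeq2 (6 at an unadjusted p under 0.05 in edgeR, 4 of them higher), and the list had a median log2 fold change of 0.13. Nid2 passed in none of the fits that left out a library, and Col3a1 in 1 of 4.

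Genes that make and break down retinoic acid differed between strains in a mixed way. Aldh1a2 rose (log2 fold change 0.91 ± 0.24, edgeR adjusted p = 0.0121), from 160 and 204 CPM in B6 to 337 and 324 CPM in D2. Cyp26b1, which degrades retinoic acid, stood at 31.1 and 18.7 CPM in B6 and 48.9 and 109 CPM in D2 and rose by 1.74 ± 0.44 (edgeR adjusted p = 0.00918). Aldh1a1, another retinaldehyde dehydrogenase, fell from 293 and 187 CPM in B6 to 101 and 109 CPM in D2 (log2 fold change -1.07 ± 0.27, edgeR adjusted p = 0.00738). Aldh1a1 and Aldh1a2 did not pass without B6 library 2 or D2 library 2, nor Cyp26b1 without B6 library 3 or D2 library 3. In all, 2 of 12 genes of the list rose and 1 fell, beside 1.72% and 4.10% of all genes tested. Of 13 solute carriers tested, Slc22a2 and Slc16a11 rose (2.13 and 0.93), Slc26a2, a sulphate transporter, fell (-1.39), and 10 did not pass, Slc6a20a and Slc22a8 among them. Slc22a2 passed without each library, Slc16a11 did not without B6 library 2 or D2 library 2, and Slc26a2 passed in 1 of the 4 fits.

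Signalling genes followed no common direction. Of all genes tested, 1.72% were called higher and 4.10% lower. Of 16 tested, Wnt4, Bmp4 and Igf1 rose by 1.09 ± 0.26, 1.05 ± 0.32 and 1.39 ± 0.43 (edgeR adjusted p = 0.00527, 0.0404 and 0.041), and Igf2 and Igfbp7 fell (-3.89 ± 0.46 and -0.91 ± 0.29, edgeR adjusted p = 1.09e-08 and 0.0459). Igf2, an imprinted growth factor gene of meninges and vessels, had 34 and 52 counts in B6 and 5 and 2 in D2. It kept its call without each library in turn and in DESeq2 (adjusted p = 7.44e-05), and in the other types it stood at 0.63 CPM (B6) and 0.011 CPM (D2). Among 17 mesenchymal transcription factors tested, Foxp1 and Tbx15 fell (-0.81 ± 0.21 and -0.89 ± 0.28, edgeR adjusted p = 0.0121 and 0.0449) and none rose, and among 9 junction genes Cdh1 rose and Tjp1 fell (1.25 and -0.78). Of these, Wnt4 did not pass without B6 library 3, Bmp4 and Tjp1 without B6 library 2 or D2 library 2, and Foxp1 and Tbx15 without B6 library 3 or D2 library 3, while Igf1, Igfbp7 and Cdh1 passed in 1 of the 4 fits. None of 2 smooth muscle, 2 microglial, 4 astrocyte or 3 oligodendrocyte markers tested passed in edgeR or DESeq2, and 1, of the astrocyte list, did at an unadjusted p under 0.05.

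**Figure D3:**
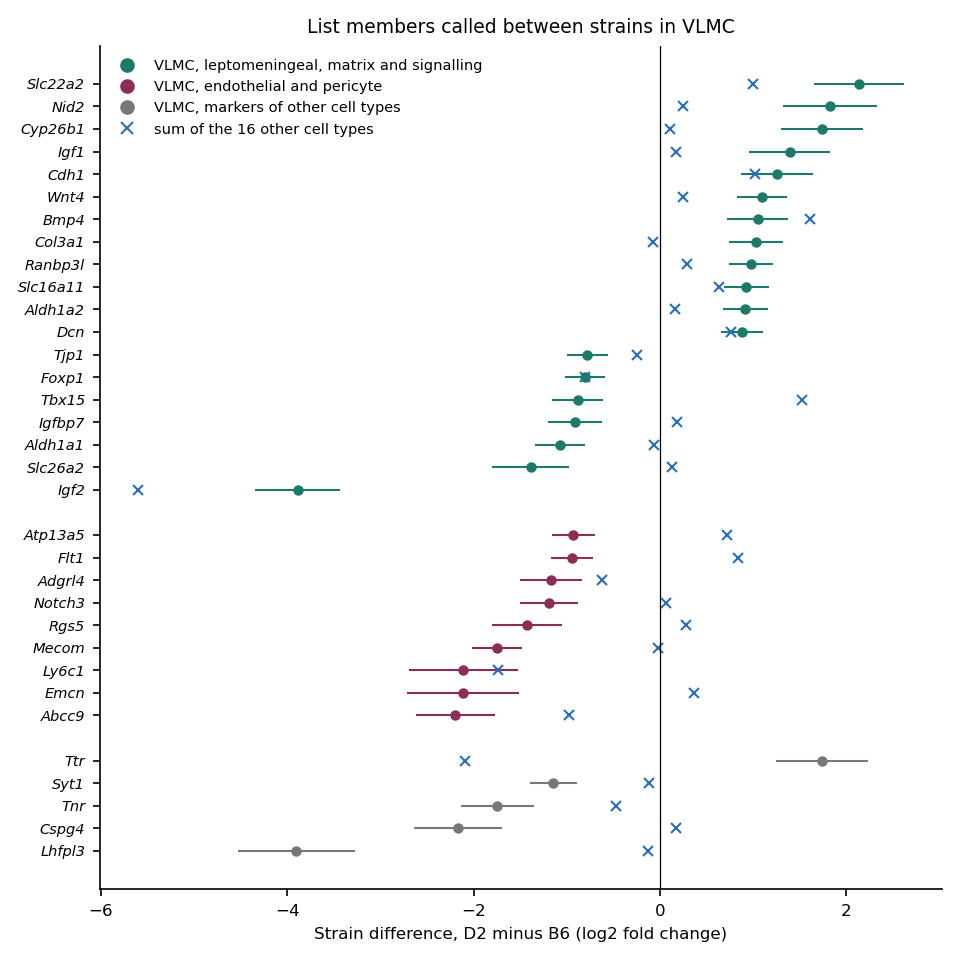
Strain differences (D2 minus B6, log2 fold change with SE from edgeR) of the 33 list members called in VLMC, with the difference in the sum of the 16 other cell types as crosses. All 9 endothelial and pericyte markers shown lie below 0. Of the 19 members of the leptomeningeal, matrix, solute carrier, retinoid, signalling, transcription factor and junction lists, 12 lie above 0.

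Markers of some other cell types moved with the strain, beside 4.10% of all genes tested that were called lower in D2 and 1.72% called higher. All 3 oligodendrocyte precursor markers tested fell in D2 (Cspg4 -2.16, Tnr -1.74 and Lhfpl3 -3.90), and the 7 markers summed to 213 and 289 CPM in B6 and 62.3 and 80.2 CPM in D2, with Sox10, which defines the lineage, at 0 in both B6 libraries. Tnr did not pass without B6 library 3 or D2 library 2, and DESeq2 called none of the 3. Cspg4, which encodes NG2, is also a gene of pericytes. Of 4 neuronal markers tested, Syt1 fell (-1.15, not without B6 library 3), and the 8 neuronal markers summed to 609 and 747 CPM in B6 and 393 and 385 CPM in D2. The higher precursor sum of B6 came from Cspg4, Tnr and Lhfpl3, the last with 49 counts in B6 library 3. Vcan overlapped between strains, at 13.3 and 18.7 CPM (B6) against 15.2 and 12.8 CPM (D2). Sox10 had 2 counts in each D2 library, and Olig1 and Olig2 had at most 3 in any library. The neuronal sum was higher in B6 as well, and the part of either sum in the decreases in D2 was not tested. Ttr rose (1.74 ± 0.50, edgeR adjusted p = 0.0235) on the 110 counts of D2 library 2, and without that library its log2 fold change was -1.80.

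To ask which strain differences were other than those of the remaining cell types, the difference in VLMC was tested against that in the sum of the 16 other types, with the library as a term. By edgeR 44 genes (0.571%) had a strain difference that was higher in VLMC and 64 (0.83%) one that was lower at an adjusted p under 0.05, and 991 passed at an unadjusted p under 0.05. DESeq2 called 61 genes, of which 59 were among the 108 of edgeR. Il31ra, a subunit of the interleukin 31 receptor at chr13:112519898-112594360, stood at 35.6 and 35.4 CPM in B6 and 160 and 80.2 CPM in D2 in VLMC. In the other types it went from 8.13 CPM in B6 to 0.81 CPM in D2, so the difference of strain differences was 5.21 ± 0.43 (log2, edgeR adjusted p = 2.5e-06). Abi3bp, a matrix-binding protein gene, rose in VLMC, from 17.8 and 31.2 CPM in B6 to 87.6 and 80.2 CPM in D2, and had a log2 fold change of -0.39 in the other types (difference 2.13 ± 0.43, edgeR adjusted p = 0.0142, not passed without B6 library 2 or D2 library 2). Hbb-bs, a beta-globin gene of red blood cells, rose on the 356 CPM of D2 library 3, and its difference (2.55 ± 0.52) did not pass without that library or without B6 library 3.

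The reference mattered for some of these genes. With astrocytes in place of the sum of all other types, 14 of the 21 named genes passed and 7 did not, and among the latter the difference was -0.19 for Flt1, 0.97 for Hbb-bs, 1.20 for Ptgds, 2.65 for Tek and -2.22 for Tbx15.

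Among the list members, the endothelial Flt1 and Mecom and the pericyte Atp13a5 had strain differences lower in VLMC than elsewhere. Flt1 fell in VLMC and stood at 1.32 CPM (B6) and 2.39 CPM (D2) in the other types (difference -1.76 ± 0.26, edgeR adjusted p = 0.00149). Atp13a5 stood at 5.94 and 9.85 CPM in the other types (difference -1.61 ± 0.23, edgeR adjusted p = 0.00144). Flt1 and Atp13a5 kept this call without each library in turn, though Flt1 did not against astrocytes alone, and Mecom lost it without B6 library 3 or D2 library 2. Tek, the angiopoietin receptor gene, did not pass in VLMC (log2 fold change -0.54 ± 0.47, edgeR adjusted p = 0.654), where it stood at 26.7 and 43.7 CPM in B6 and 21.9 and 28.9 CPM in D2. In the other types Tek stood at 35.6 CPM (B6) and 0.83 CPM (D2), and the difference was 4.87 ± 0.56 (edgeR adjusted p = 0.000172). Ptgds and Gjb6 did not pass in VLMC alone and had differences of 1.54 ± 0.30 and 1.36 ± 0.24 from the other types (edgeR adjusted p = 0.0128 and 0.00602), and that of Ptgds did not pass without D2 library 3. Tbx15 stood at 164 and 210 CPM in B6 and 121 and 64.2 CPM in D2 in VLMC, and at 0.55 and 1.59 CPM in the other types (difference -2.42 ± 0.42, edgeR adjusted p = 0.00602, not passed without B6 library 3).

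**Figure D4:**
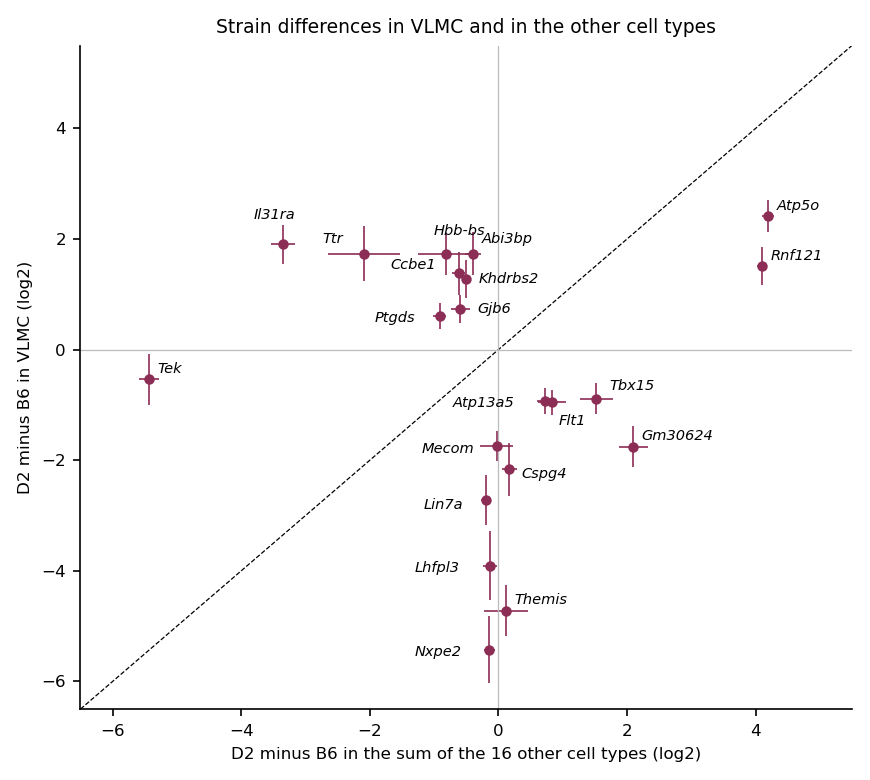
Strain difference in VLMC (vertical axis, log2, D2 minus B6) against that in the sum of the 16 other cell types (horizontal axis, log2), with SE bars, for the 21 named genes whose 2 differences were called unequal. The dashed line marks equal differences; Nxpe2, Themis, Lhfpl3 and Lin7a lie far below it near 0 on the horizontal axis, and Il31ra and Tek lie to the left of it at -3.35 and -5.44.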

How the data were processed

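The counts used are raw snRNA-seq counts that the authors deposited, added up for every cell type of a library. B6 reads had been mapped to mm10, and D2 reads to mm10 carrying the D2 single-nucleotide variants, with Cell Ranger 6.0.2 (introns retained). Nuclei had been filtered and clustered with Seurat 4.0.5 and doublets removed by DoubletFinder. The deposited number of nuclei is given as the authors' number, without a test. Libraries are numbered 2 and 3 in the table and 1 and 2 in the labels, so columns were placed in a strain only. The snATAC-seq tables hold no VLMC column, and the methylation samples are not analysed here.

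CPM is the count over the column total. Differences were fitted with edgeR 4.0.16 (R 4.3.3; TMM, filterByExpr, quasi-likelihood F test, Benjamini-Hochberg) on the 24691 of 33902 symbols counted in both strains. Standard errors are the fold change over the square root of F. The fit over VLMC and other types included the library, and differences in the other types alone came from a fit of their sums. The fits were tested on simulated counts with 200 changed genes. In the strain fit edgeR recovered 56.5% of them, with 4.24% of its calls false, and DESeq2 recovered 28%, with 0% false. Against the other types edgeR recovered 51.5%, with 8.85% of its calls false. Alternatives were DESeq2 1.42.0, RLE factors, other filters, references and limits, each library left out, and the library number as a block. Named genes were the 20 VLMC-high genes of largest ratio, the 3 markers, up to 4 members of each of 21 lists by ratio, list members called between strains, and, at 20 or more counts on average without overlap between strains, the 8 called genes of largest change in each direction and the 5 in each direction against the other types. Slc5a5, Lef1, Col11a1, Acta2, Myh11, Sox10, Clic6, Otx2, mt-Cytb, mt-Rnr1, mt-Rnr2 and further VLMC-high list members were named after their values were seen, as were list members called only against the other types. The members and lists were chosen with earlier results of these data known. Gene positions are from GENCODE vM21 and promoters from RefSeq (GRCm38.p6, the build of mm10). Intervals and floors cover counting error only.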

Additional observations from a re-analysis of the deposited data

Results flagged for a closer look

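The strain difference in VLMC was not that in the sum of the 16 other cell types for 21 named genes (edgeR interaction, adjusted p under 0.05). The log2 difference of strain differences was lower in VLMC for Nxpe2 (-5.44), Themis (-4.90), Gm30624 (-3.77), Lhfpl3 (-3.73), Rnf121 (-2.57), Lin7a (-2.54), Tbx15 (-2.42), Cspg4 (-2.31), Flt1 (-1.76), Atp5o (-1.75), Mecom (-1.74) and Atp13a5 (-1.61). It was higher in VLMC for Il31ra (5.21), Tek (4.87), Ttr (3.57), Hbb-bs (2.55), Abi3bp (2.13), Ccbe1 (1.95), Khdrbs2 (1.79), Ptgds (1.54) and Gjb6 (1.36). Of the 21, 8 passed without each library in turn, namely Nxpe2, Flt1, Atp13a5, Gm30624, Rnf121, Lin7a, Il31ra and Gjb6. Lhfpl3 and Tek passed in each of the 3 fits that held them, and DESeq2 called 16 of the 21. With astrocytes as the only other type 14 of the 21 passed, and Themis, Tbx15, Flt1, Hbb-bs, Ccbe1, Ptgds and Tek did not.

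Rnf121 and Atp5o rose in both, by less in VLMC than elsewhere. Overlapping genes share the symbol Atp5o in GENCODE vM21, and their parts in its counts were not told apart. Rnf121 stood at 40.0 and 35.4 CPM in B6 and 101 and 99.5 CPM in D2 in VLMC, and at 37.7 CPM (B6) and 655 CPM (D2) in the other types. Gm30624 fell from 258 and 83.2 CPM in B6 to 43.8 and 41.7 CPM in D2 in VLMC, while its level in the other types was 0.60 CPM (B6) and 2.60 CPM (D2).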

How the results depend on the processing

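The 216 VLMC-high genes became 361 at a fold limit of 2, 75 at a limit of 10, 128 with a minimum of 10 counts in each VLMC column, 648 against the mean of the other types and 358 against non-neuronal types only; without each library in turn the count was between 195 and 231. The 449 strain calls became 66 with DESeq2 and between 243 and 352 without each library in turn, and the 108 calls against the other types became 61 with DESeq2, 181 with no filter beyond 1 count and between 88 and 143 without each library in turn. The remaining settings kept these counts within 1.5 times. With the library number as a replicate block 506 genes were called, 427 of them shared with the 449, and 1 of the 49 named strain calls was lost. Deviations of same-numbered libraries of the strains had a correlation of -0.00066 across genes. Counting error at low counts also weakens such a correlation, so it does not decide whether the numbers pair the libraries. With 2 libraries left in one strain and 1 in the other, the lone library is assumed to vary like the others. Of the 33 list members called between strains, 5 kept the call without each library in turn and 2 were called by DESeq2. Igfbp7 and Tbx15 also lost the call with RLE factors, and they, Bmp4, Igf1 and Cdh1 with a minimum of 10 counts over the VLMC columns. The only direction that turned among named genes was that of Ttr, at -1.80 without D2 library 2 and up to 2.49 without another library. The D2 minus B6 difference in the share of nuclei was 0.18 percentage points, between -0.27 and 0.64 without each library in turn, and 0.76 with non-neuronal nuclei as the denominator; 2 libraries against 2 cannot go below an exact permutation p of 0.33, and the planned test was not run because the numbers of nuclei are the authors' totals. The cause of these changes was not tested. Depth limits genes under the floors of 5.06 to 13.3 CPM.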
